A study of Mus musculus with 12 samples.

Results

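The smooth muscle contraction genes encode the contractile apparatus of the muscle coat around the epididymal duct and the channels, receptors and enzymes that control it. A list of 34 such genes was taken by gene symbol, and 33 of them had a probe-set annotated with their symbol alone, out of 22180 genes that could be measured in this way. Each gene was represented by 1 probe-set, the one with the highest mean over all arrays. Adra1a, an alpha-1 adrenergic receptor, had no probe-set listed with its symbol alone and was not analysed here.

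RNA of the cauda epididymidis, the distal region that stores spermatozoa, and of the corpus, the middle region, was hybridised to 12 whole-transcript arrays (Affymetrix Mouse Gene 2.0 ST), with 3 arrays in each of 4 groups. The Dicer1 cKO mice (Defb41iCre/wt;Dicer1fl/fl) lack Dicer1 in the epithelial principal cells of more proximal regions, the initial segment and caput, where the Defb41 promoter drives Cre, and neither region measured here is targeted. The control mice (Dicer1fl/fl) carry the same floxed alleles without Cre, and all mice were of a mixed C57Bl/6N and SV129 background. Tissue of the same region from the left and right side of a mouse was combined, and the age of the mice is not given in the sources used here. The sample labels state that 3 animals of each genotype were used, and no source says which cauda and corpus arrays come from 1 mouse. Values are log2 intensities, so that a difference of 1 is a 2-fold change, and a level is comparable between arrays for 1 gene but not between genes.

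Smooth muscle shortens when calcium that enters the cell binds calmodulin and activates myosin light chain kinase, which lets myosin pull on actin filaments anchored to dense bodies and to the membrane. Myosin phosphatase and the cyclic GMP pathway relax the cell again. In the epididymis the muscle coat is thin around the proximal duct and becomes thick and densely innervated in the cauda, where sympathetic nerves release noradrenaline and ATP and contraction propels spermatozoa at ejaculation. Many genes of the contractile apparatus are switched on by serum response factor (SRF), which binds a sequence called the CArG box, together with its coactivator myocardin.

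To show the sequence on which SRF is known to act, the promoters of the list were searched in RefSeq (GRCm38.p6) for the CArG box, which is CC, then 6 bases of A or T, then GG, and reads the same way on both strands. Of the 34 genes, 29 had a promoter entry, from 250 bases before the start site to 50 after it. The 5 without an entry, Tagln, Myh11, Actg2, Myocd and Adra1a, were not searched. A CArG box lay in the promoters of 3 of 29, Myl9, Vcl and Ldb3 (10.3%), and in 1.81% of 27025 genes with a promoter entry. With 1 C or G allowed among the 6 central bases, called CArG-like here, 8 of 29 had a match (27.6%), against 11.3% of all genes. The further 5 were Acta2, Synm, Pdlim3, Cacna1c and Jph2. The windows below lie at chr2:156775293-156775322 on the plus strand for Myl9, chr14:20929161-20929190 on the plus strand for Vcl and chr14:34588697-34588726 on the minus strand for Ldb3. Those of Acta2, each with a CArG-like match, lie on the minus strand at chr19:34255438-34255467, with its first capital 84 bases before the start site, and chr19:34255388-34255417, 34 bases before it. They are shown because Acta2, smooth muscle alpha actin, carries a pair of matches upstream of its start, and they are written 5′ to 3′ on the strand of the gene with the match in capitals. A match describes the letters only and is not a measured binding site.
Myl9: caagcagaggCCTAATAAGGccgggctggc
Vcl: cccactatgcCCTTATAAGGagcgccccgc
Ldb3: gggttacagtCCATTTATGGgcgcagcaag
Acta2 upstream: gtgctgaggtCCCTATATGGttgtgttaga
Acta2 downstream: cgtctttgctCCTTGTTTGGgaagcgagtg

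Array medians lay between 5.19 and 5.31, and all 33 genes had a mean level above the median of all values, 5.23. Pearson's r of array pairs ranged between 0.970 and 0.986 in the same group and between 0.957 and 0.984 in different groups. On a principal component holding 13.8% of the variance, cKO corpus replicates 1 and 2 (-58.8 and -53.7) lay apart from the other 10 arrays, and cKO corpus replicate 3 (36.6) lay nearest to the control corpus arrays (9.69, 17.9 and 35.01). Control corpus replicate 1 stood apart in 11 skeletal muscle markers, whose mean level was 9.07 there, 5.38 and 5.64 on the other control corpus arrays and 5.32 to 5.78 on the cKO corpus arrays. Among them Actn3, a fast muscle alpha-actinin, was at 10.38 on that array and between 5.93 and 7.01 on all others. Results are therefore also given without control corpus replicate 1 for some of the genes where they moved. Dicer1 itself had log2 fold changes of 0.17 in the cKO cauda and 0.05 in the cKO corpus relative to control, and as it is deleted elsewhere it checks no label.

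The first question was how the muscle genes differ between the cauda and the corpus. In Dicer1 cKO mice 23 of 33 genes were higher in the cauda and 0 lower at an adjusted p under 0.05 in limma, where 1.64% of all 41345 probe-sets were higher and 1.05% lower. In control mice 25 were higher and 1, Oxtr, was lower, where 1.77% of all probe-sets were higher and 1.75% lower. The median difference of the 33 genes was 1.13 on the log2 scale in cKO mice (a fold of 2.18) and 1.45 in control mice (a fold of 2.73), whereas the median over all probe-sets was 0.01 and -0.01. Per array, the mean level of the 33 genes was 9.67, 9.86 and 10.00 in the cKO cauda, against 8.46, 8.78 and 8.42 in the cKO corpus, and 9.65, 9.84 and 9.64 in the control cauda, against 8.45, 8.29 and 8.10 in the control corpus. Every cauda array was above every corpus array. In whole tissue, a change in the number of muscle cells and a change in the RNA of each cell cannot be told apart.

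**Figure D1:**
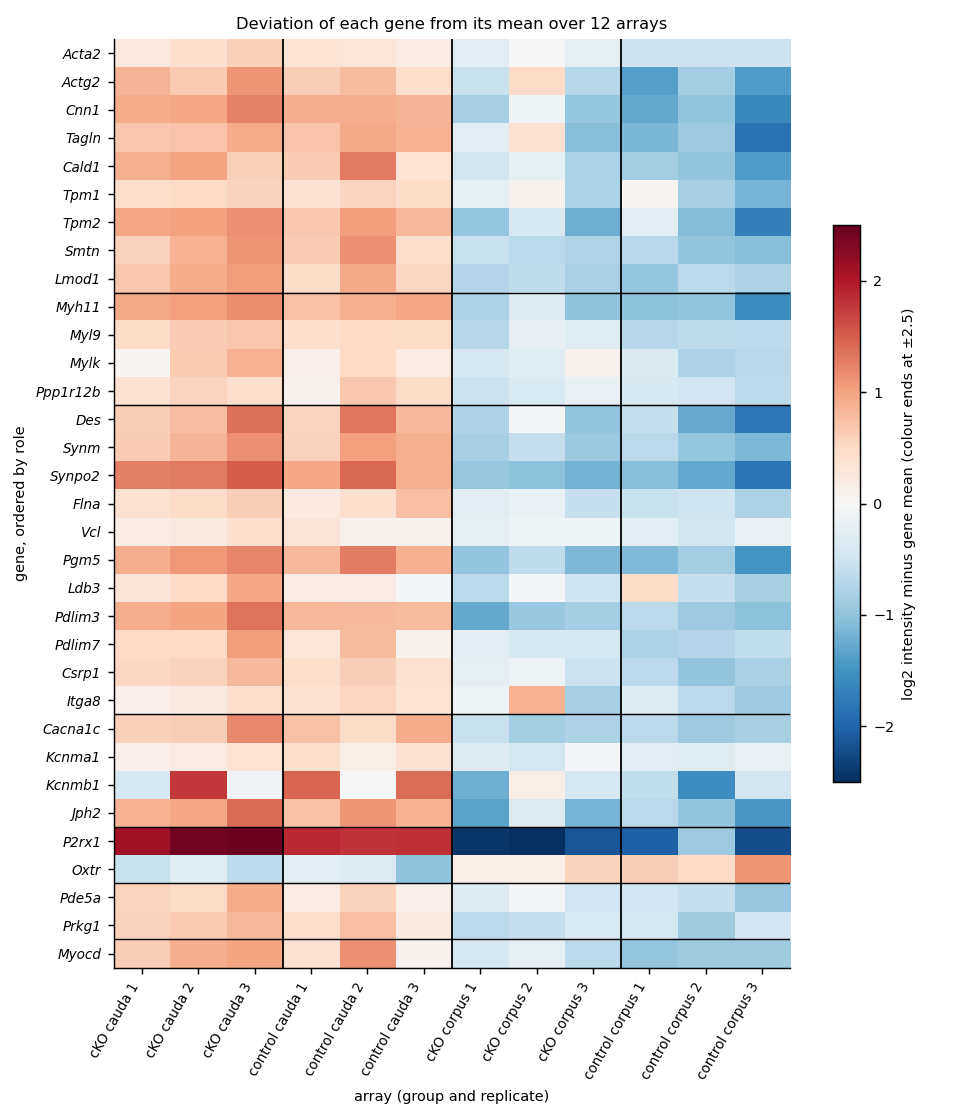
Each cell is the log2 intensity of 1 gene (rows, ordered by role, with lines between role groups) on 1 array (columns, by group and replicate) minus the mean of that gene over 12 arrays. The 6 cauda arrays on the left are above the gene mean for most of the 33 genes and the 6 corpus arrays below it, Oxtr is reversed, and P2rx1 has the strongest colours.

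The cauda and corpus arrays did not overlap for 29 genes that were higher in the cauda of cKO mice (9.75% of all probe-sets) and for 31 in control mice (10.2% of all probe-sets). Lower without overlap was 1 gene in each genotype, Oxtr (8.45% of all probe-sets in cKO mice and 11.8% in controls). At an unadjusted p under 0.05 in limma, 30 genes were higher and 1 lower in the cauda of cKO mice (7.01% and 5.80% of all probe-sets), and 31 higher and 1 lower in that of control mice (8.03% and 7.87%). In cKO mice the overlapping genes were Mylk, Itga8 and Kcnmb1, and in control mice Ldb3. The comparisons of cKO and of control mice share no array, although they share 1 estimate of the spread of each probe-set. Across the 33 genes the difference between regions in cKO mice correlated with that in control mice (Pearson's r 0.871, Spearman's rho 0.829), which is a description across genes of the same arrays, not of independent points. The 23 genes called in cKO mice were all among the 26 called in control mice.

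Thin filaments and their regulators comprised 9 genes, of which 6 rose in the cauda of cKO mice and 8 in that of control mice. Acta2, smooth muscle alpha actin, had 13.12, 13.29 and 13.48 in the cKO cauda, against 12.58, 12.86 and 12.65 in the cKO corpus, and 13.21, 13.17 and 13.06 in the control cauda, against 12.36 on all 3 control corpus arrays. The groups were apart in both genotypes, with log2 fold changes of 0.60 in cKO mice (standard error 0.13, adjusted p = 0.0322 in limma) and 0.79 in control mice (standard error 0.13, adjusted p = 0.00672). Cnn1, calponin, which binds actin and slows the myosin ATPase, had 12.38, 12.43 and 12.70 in the cKO cauda, against 10.63, 11.36 and 10.49 in the cKO corpus, and 12.36, 12.37 and 12.30 in the control cauda, against 10.18, 10.47 and 9.86 in the control corpus. It was 3.20-fold higher in the cauda of cKO mice (log2 fold change 1.68, adjusted p = 0.00217) and 4.52-fold higher in that of control mice (2.18, adjusted p = 0.000445), with no overlap.

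Actg2, the gamma actin of visceral smooth muscle, had 11.30, 11.10 and 11.55 in the cKO cauda, against 9.90, 10.94 and 9.74 in the cKO corpus, and 11.07, 11.25 and 10.89 in the control cauda, against 9.07, 9.58 and 9.04 in the control corpus. Cauda arrays were above corpus arrays in each genotype, and only in control mice did the difference pass the test (1.84, adjusted p = 0.00494), with 1.13 in cKO mice (adjusted p = 0.0684). Tagln, transgelin or SM22, an actin-bundling protein, had 11.75, 11.80 and 12.02 in the cKO cauda, against 10.83, 11.46 and 10.02 in the cKO corpus, and 11.80, 12.02 and 11.96 in the control cauda, against 9.94, 10.18 and 9.21 in the control corpus. Its differences were 1.09 in cKO mice (adjusted p = 0.128) and 2.15 in control mice (adjusted p = 0.00432). For Actg2 and Tagln cKO corpus replicate 2 was the highest corpus array, and without it the cKO differences were 1.50 (adjusted p = 0.00592) for Actg2 and 1.43 (adjusted p = 0.0400) for Tagln. These were the largest over 21 alternative settings. The smallest were 0.90 for Actg2 and 0.72 for Tagln, and the settings with a call were 4 for Actg2 and 1 for Tagln. The 2 differences were not shown to differ between genotypes, since the difference of differences had an adjusted p of 0.829 for Actg2 and 0.766 for Tagln.

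Cald1, caldesmon, which ties actin to myosin and holds it back, had 10.43, 10.53 and 10.13 in the cKO cauda, against 9.09, 9.29 and 8.76 in the cKO corpus, and 10.17, 10.84 and 9.88 in the control cauda, against 8.67, 8.54 and 8.12 in the control corpus. Its log2 fold changes were 1.32 (adjusted p = 0.0158) in cKO mice and 1.85 (adjusted p = 0.00214) in control mice. Smtn, smoothelin, differed by 1.50 in cKO mice and 1.65 in control mice, and Lmod1, leiomodin, which starts new actin filaments, by 1.61 and 1.44. A second, dim probe-set of Smtn, with a mean level of 4.93, differed by 0.66 and 0.12 and was not called. The tropomyosins, which lie along the actin filament, were split: Tpm2 differed by 1.89 in cKO mice and 1.88 in control mice (adjusted p = 0.00716 and 0.00714), and Tpm1 by 0.82 and 1.11 (adjusted p = 0.207 and 0.0600). Tpm1 and Tpm2 had their highest control corpus value on replicate 1, the array with skeletal muscle markers, at 9.38 against 8.50 and 8.18 for Tpm1 and 8.74 against 7.95 and 7.32 for Tpm2. Without that array the control difference was 1.45 for Tpm1 (adjusted p = 0.0110) and 2.25 for Tpm2.

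Myosin and its control comprised 4 genes, and 3 of them rose in the cauda of each genotype. Myh11, the heavy chain of smooth muscle myosin, had 12.19, 12.26 and 12.39 in the cKO cauda, against 10.46, 10.91 and 10.22 in the cKO corpus, and 11.96, 12.13 and 12.20 in the control cauda, against 10.20, 10.25 and 9.67 in the control corpus. It was 3.36-fold higher in the cauda of cKO mice (1.75, standard error 0.20, adjusted p = 0.000799) and 4.16-fold higher in that of control mice (2.06, standard error 0.20, adjusted p = 0.000303). Myl9, the regulatory light chain that is phosphorylated at the start of contraction, differed by 1.01 and 1.13 in cKO and control mice, and Ppp1r12b, a targeting subunit of myosin phosphatase, by 0.83 and 0.94. The kinase of that light chain, Mylk, had 9.32, 9.92 and 10.14 in the cKO cauda, against 8.86, 8.96 and 9.37 in the cKO corpus, and 9.39, 9.76 and 9.48 in the control cauda, against 8.91, 8.49 and 8.56 in the control corpus. Its values overlapped between the regions of cKO mice and not between those of control mice. The Mylk differences, 0.73 in cKO mice (adjusted p = 0.139) and 0.89 in control mice (adjusted p = 0.0567), did not pass the test. The control call for Mylk was reached without cKO cauda replicate 1 (adjusted p = 0.0318) or cKO corpus replicate 3 (adjusted p = 0.0409), through the shared estimate of the spread.

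**Figure D2:**
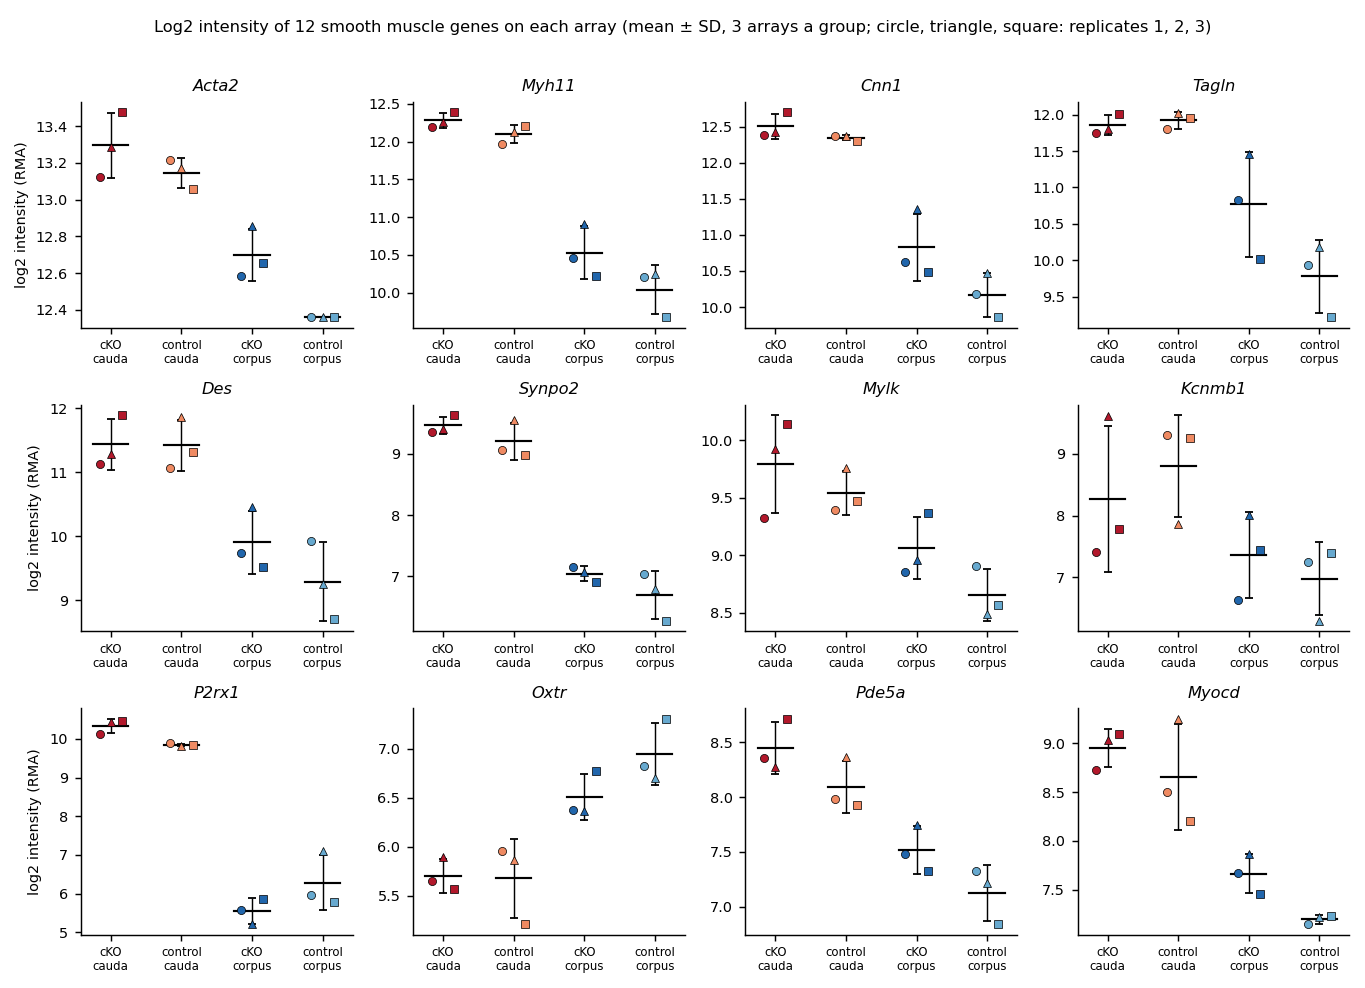
Log2 intensity (RMA, vertical axes, each with its own range) of 12 smooth muscle genes on each array, with cKO left of control and cauda left of corpus; circles, triangles and squares are replicates 1, 2 and 3, lines the group mean and bars the SD of 3 arrays. Cauda arrays lie above corpus arrays for most panels, below them for Oxtr, and Kcnmb1 spreads over more than 2 log2 units within the cKO cauda (7.41 to 9.62).

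Intermediate filaments, Z-body proteins and membrane attachments comprised 11 genes, of which 8 rose in the cauda of each genotype. Des, desmin, the intermediate filament of muscle, had 11.12, 11.29 and 11.89 in the cKO cauda, against 9.74, 10.46 and 9.52 in the cKO corpus, and 11.07, 11.86 and 11.32 in the control cauda, against 9.93, 9.25 and 8.70 in the control corpus. The regions did not overlap, with differences of 1.53 (standard error 0.35, adjusted p = 0.0426) in cKO mice and 2.13 (standard error 0.35, adjusted p = 0.00672) in control mice. Des was highest among control corpus arrays on replicate 1, and without it the control difference was 2.44. Synpo2, synaptopodin 2, an actin-binding Z-body protein, had 9.36, 9.39 and 9.62 in the cKO cauda, against 7.15, 7.08 and 6.91 in the cKO corpus, and 9.07, 9.54 and 8.98 in the control cauda, against 7.03, 6.79 and 6.28 in the control corpus. Its differences of 2.41 (a fold of 5.32, adjusted p = 0.000123) in cKO mice and 2.50 (a fold of 5.64, adjusted p = 0.000145) in control mice were exceeded within the list only by P2rx1.

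The other 6 genes of this group that rose in each genotype were Pgm5, Pdlim3, Synm, Csrp1, Pdlim7 and Flna. Pgm5, a phosphoglucomutase relative found at adhesion plaques, differed by 1.99 and 2.14 in cKO and control mice, Pdlim3, an actinin-associated LIM protein, by 2.11 and 1.68, and Synm, the intermediate filament protein synemin, by 1.66 and 1.75. Csrp1, a LIM protein of smooth muscle, differed by 0.94 and 1.29, Pdlim7 by 1.05 and 1.10, and Flna, filamin A, which crosslinks actin, by 0.83 and 1.08. Not called in either genotype were Vcl, vinculin (0.42 and 0.49), Itga8, an integrin subunit (0.28 and 1.06), and Ldb3, a Z-disc protein (1.00 and 0.44). Ldb3 had 6.54, 6.70 and 7.17 in the cKO cauda, against 5.53, 6.18 and 5.72 in the cKO corpus, and 6.41, 6.41 and 6.19 in the control cauda, against 6.67, 5.64 and 5.38 in the control corpus. Only the control corpus array with skeletal muscle markers reached the cauda values of Ldb3, and without it the control difference was 0.83 (adjusted p = 0.118). Itga8 was at 8.80 on cKO corpus replicate 2, above all 6 cauda arrays, which lay between 8.05 and 8.46.

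Among 4 genes for calcium entry, potassium channels and their couplers, 2 rose in the cauda of each genotype. Cacna1c, the pore of the L-type calcium channel, had differences of 1.54 in cKO mice (adjusted p = 0.00107) and 1.51 in control mice (adjusted p = 0.00109). Jph2, junctophilin 2, which holds the calcium store near the cell membrane, differed by 2.03 and 1.94 (adjusted p = 0.00256 and 0.00338). Kcnma1, the pore of the large-conductance calcium-activated potassium channel that brakes contraction, differed by 0.50 in cKO mice and 0.56 in control mice, apart in both and short of the threshold (adjusted p = 0.0955 and 0.0510). A second, dim probe-set of Kcnma1, with a mean level of 4.37, differed by 0.10 and -0.17. The muscle subunit of this channel, Kcnmb1, had 7.41, 9.62 and 7.78 in the cKO cauda, against 6.64, 8.01 and 7.44 in the cKO corpus, and 9.30, 7.86 and 9.25 in the control cauda, against 7.25, 6.30 and 7.39 in the control corpus. Its SD of 1.19 in the cKO cauda and 0.821 in the control cauda was larger than that of any other gene of the list in the same group. The Kcnmb1 differences of 0.91 and 1.83 had a standard error of 0.60 and adjusted p-values of 0.617 and 0.146. The cKO difference was 0.23 without cKO cauda replicate 2, 0.54 without cKO corpus replicate 1 and 1.34 without cKO cauda replicate 1.

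The receptors held the largest differences of either sign. P2rx1, the ATP-gated channel through which sympathetic ATP contracts the vas deferens, had 10.12, 10.43 and 10.46 in the cKO cauda, against 5.58, 5.21 and 5.87 in the cKO corpus, and 9.88, 9.82 and 9.83 in the control cauda, against 5.97, 7.09 and 5.79 in the control corpus. The regions lay over 2 log2 units apart in each genotype, and most corpus values were near the median of all values, 5.23. No detection call was used here, so whether the corpus level exceeds background is not known and the folds may understate the difference. On the RMA scale P2rx1 was 27.6-fold higher in the cauda of cKO mice (4.79, standard error 0.29, adjusted p = 2.61e-05) and 11.8-fold higher in that of control mice (3.56, standard error 0.29, adjusted p = 0.000145). Oxtr, the oxytocin receptor, ran the other way, with 5.65, 5.90 and 5.56 in the cKO cauda, against 6.38, 6.37 and 6.78 in the cKO corpus, and 5.95, 5.87 and 5.21 in the control cauda, against 6.83, 6.71 and 7.31 in the control corpus. Cauda arrays were below corpus arrays in each genotype, by -0.80 in cKO mice (adjusted p = 0.107) and by -1.27 in control mice (adjusted p = 0.0107). The cauda values of Oxtr were near the median of all values too. Whether they exceed background is not known, and the size may be understated. Without control corpus replicate 3 the Oxtr difference in control mice was -1.09 (adjusted p = 0.0524).

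Both genes of cyclic GMP relaxation rose in the cauda of each genotype. Pde5a, the phosphodiesterase that degrades cyclic GMP, had 8.36, 8.28 and 8.72 in the cKO cauda, against 7.48, 7.75 and 7.33 in the cKO corpus, and 7.98, 8.37 and 7.93 in the control cauda, against 7.33, 7.21 and 6.84 in the control corpus. The regions did not overlap, and the differences were 0.93 (adjusted p = 0.0241) and 0.97 (adjusted p = 0.0184). Prkg1, the cyclic GMP-dependent protein kinase, differed by 1.22 (adjusted p = 0.00298) in cKO mice and 1.08 (adjusted p = 0.00590) in control mice. Myocd, myocardin, the coactivator of SRF, had 8.73, 9.03 and 9.09 in the cKO cauda, against 7.67, 7.86 and 7.46 in the cKO corpus, and 8.50, 9.25 and 8.20 in the control cauda, against 7.15, 7.22 and 7.23 in the control corpus. It was higher in the cauda by 1.29 (adjusted p = 0.0126) in cKO mice and 1.45 (adjusted p = 0.00603) in control mice. Of the 3 genes with a CArG box printed above, Myl9 was called in each genotype and Vcl and Ldb3 in neither.

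When each array was left out in turn, 15 of the 23 calls in cKO mice and 23 of the 26 in control mice held in all 12 refits. The calls lost at least once were those of Acta2, Cald1, Des, Flna, Myocd, Pde5a, Pdlim7 and Ppp1r12b in cKO mice, and of Oxtr, Pde5a and Ppp1r12b in control mice. In cKO mice Acta2 and Des each kept the call in 4 of 12 refits, with an adjusted p of up to 0.143 for Acta2 (without 1 of cKO cauda 2 and 3, control cauda 1, cKO corpus 1 and 3 or any control corpus array) and 0.177 for Des (without any cKO cauda array, control cauda 1 or 3, cKO corpus 1 or 3, or control corpus 2). Flna and Pde5a lost it without any 1 cKO cauda array or cKO corpus 1 or 3 (adjusted p up to 0.111 and 0.113), and Ppp1r12b without any 1 cKO cauda array or cKO corpus 1 or 2 (up to 0.0923). Cald1 lost it without cKO cauda 1 or 2 or cKO corpus 1 (up to 0.0787), Myocd without cKO cauda 2 or 3 (up to 0.0634) and Pdlim7 without cKO cauda 3 or cKO corpus 2 (up to 0.0593). In control mice Ppp1r12b and Pde5a lost it without control corpus 3 (adjusted p = 0.0509 and 0.0850), and Pde5a also without control cauda 2 (0.0762). Calls gained at least once were those of Actg2, Tagln, Kcnma1, Ldb3 and Mylk in cKO mice, and of Itga8, Kcnma1, Mylk and Tpm1 in control mice. Those not given above were Kcnma1 without cKO corpus 3 (adjusted p = 0.0353 in cKO and 0.0283 in control mice), Ldb3 without control corpus 1 (0.0368) and Mylk without cKO cauda 1 (0.0455) in cKO mice, and Itga8 without cKO corpus 2 or 3 (0.0197 and 0.0327) and Tpm1 also without cKO corpus 3 in control mice. Without control corpus replicate 1, 23 genes were called in cKO mice and 27 in control mice (982 and 900 of 41345 probe-sets).

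**Figure D3:**
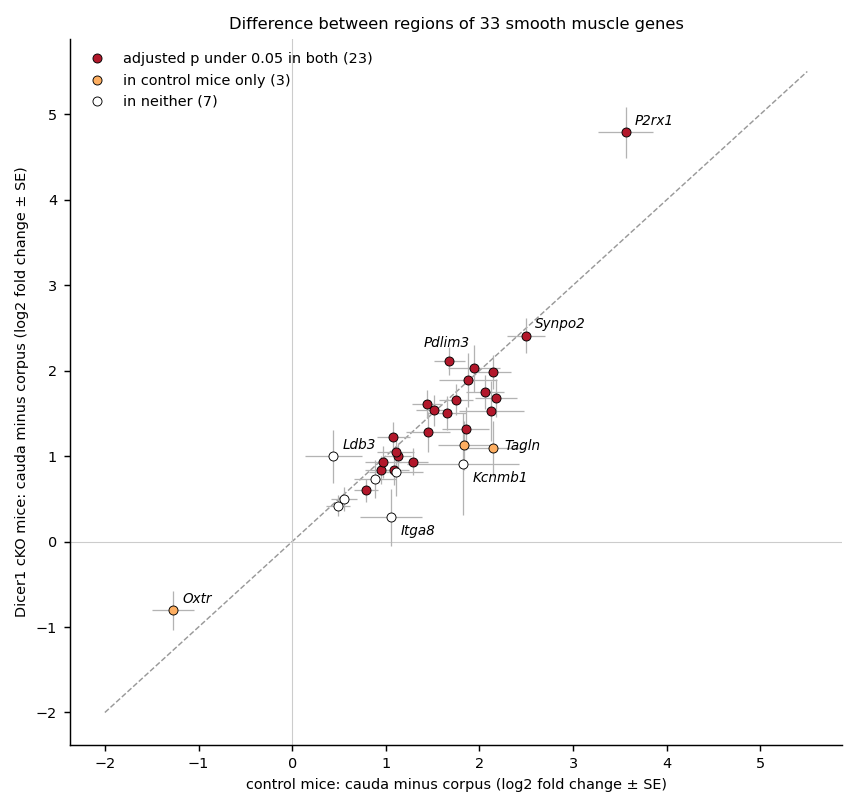
Log2 fold change of the cauda relative to the corpus for 33 genes in Dicer1 cKO mice (vertical axis) and in control mice (horizontal axis), with standard errors as grey lines and equality as a dashed line. P2rx1 lies at 4.79 in cKO and 3.56 in control mice, Oxtr below 0 in both, and most other genes between 0.4 and 2.5 in control mice, 24 of 33 below the dashed line.

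Other cell types were measured beside these differences. Of 6 markers of pericytes and vascular mural cells, which share contractile genes with the duct muscle, 0 were called in either genotype, and their mean level lay between 6.997 and 7.35 on all 12 arrays. The 8 endothelial markers gave 0 calls as well, with median differences of -0.04 in cKO mice and 0.18 in control mice. Of 8 fibroblast markers, 0 rose in the cauda of cKO mice and 2 in that of control mice, with median differences of 0.39 and 0.76. Among 9 non-muscle cytoskeleton genes, such as Actb and Myh9, 0 were called in cKO mice and 1 rose in control mice, with medians of -0.27 and 0.04. The 8 epididymal epithelium markers measured had median differences of -1.10 and -1.44 and a mean level of 8.21 on cKO cauda replicate 3 and 8.52 on control cauda replicate 3, against 10.01 to 11.5 on the other 10 arrays. For these lists too, the number of cells and the RNA of each cell cannot be told apart, so they do not measure a share of epithelium or fibroblasts. The part of these markers in the muscle differences was not tested. Of the 11 skeletal muscle markers, 0 were called in either genotype, and 9 were above 0 in cKO mice, 4 of them without overlap, and 2 in control mice. Acta1, skeletal alpha actin, lay between 10.70 and 11.16 on the cauda arrays and between 6.36 and 8.84 on the corpus arrays other than control corpus replicate 1. Ckm, muscle creatine kinase (7.64 to 8.80 and 5.69 to 6.37), and Tnnc2, fast skeletal troponin C (7.41 to 8.66 and 6.42 to 6.87), were likewise apart on these arrays. The skeletal myosin heavy chains Myh1 (3.80 to 4.84 and 3.89 to 5.13), Myh2 (3.91 to 4.83 and 3.69 to 4.85) and Myh4 (3.44 to 4.42 and 3.57 to 4.30) overlapped. So did Actn3 (6.54 to 7.01 and 5.93 to 6.63) and Tnnt3 (6.06 to 7.11 and 5.48 to 6.28). The part of these markers in the muscle differences was not tested.

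**Figure D4:**
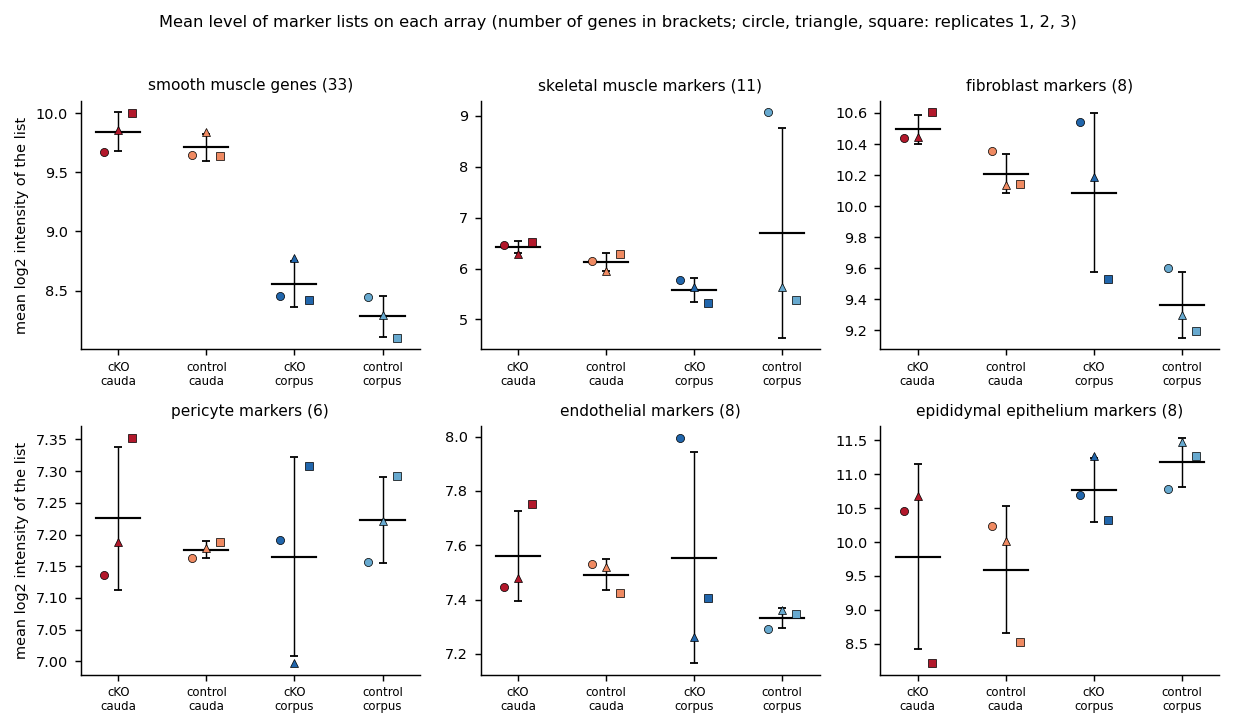
Mean log2 intensity over the genes of 6 lists (number of genes in brackets) on each array, with cKO left of control and cauda left of corpus; circles, triangles and squares are replicates 1, 2 and 3, lines the group mean and bars the SD of 3 arrays. The smooth muscle genes part cauda from corpus arrays, control corpus replicate 1 stands at 9.07 for skeletal muscle markers, and replicate 3 of each cauda group is low for epididymal epithelium markers.

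The second question was whether the muscle genes differ with loss of Dicer1 upstream. In the cauda, 0 of 33 genes were called between cKO and control mice (0% of all probe-sets in either direction), and 0 reached an unadjusted p under 0.05 in limma, where 1.83% of all probe-sets were higher and 3.83% lower. The median difference was 0.15, with 29 genes above 0 and 4 below it (54.4% and 45.6% of all probe-sets), beside a median of 0.02 over all probe-sets, and single genes ranged between -0.54 (Kcnmb1) and 0.49 (P2rx1). Arrays did not overlap for 4 genes that were higher in the cKO cauda, Cnn1, Ldb3, Pdlim3 and P2rx1 (5.13% of all probe-sets). P2rx1 had 10.12, 10.43 and 10.46 in the cKO cauda, against 9.88, 9.82 and 9.83 in the control cauda, a difference of 0.49 (95% interval -0.15 to 1.14). The intervals of 30 genes stayed within a 2-fold change in either direction, and those of 3 (Ldb3, Kcnmb1 and P2rx1) reached past it. When 1 array was left out, between 23 and 29 genes were above 0, and the Kcnmb1 difference ran from -1.21 without cKO cauda replicate 2 to -0.11 without cKO cauda replicate 1. Of 5 spermatid and sperm markers, 4 were lower in the cKO cauda without overlap and at an unadjusted p under 0.05 in limma (median -2.78, 0 called). Their mean level lay between 7.03 and 7.63 in the cKO cauda, against 9.27 to 10.02 in the control cauda, and their part in the muscle genes was not tested. Between cauda and corpus these markers had a median of -0.68 in cKO mice and 1.42 in control mice.

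In the corpus, 0 of 33 genes were called between cKO and control mice (0% of all probe-sets in either direction). At an unadjusted p under 0.05 in limma, 7 genes were higher in the cKO corpus (4.26% of all probe-sets) and 1 was lower (4.09%). The higher ones were Acta2, Actg2, Cnn1, Tagln, Cald1, Myh11 and Csrp1, and the lower one was P2rx1. Without overlap, 7 genes were higher in the cKO corpus (5.85% of all probe-sets) and 0 lower (5.99%). These were Acta2, Actg2, Cnn1, Cald1, Csrp1, Pdlim7 and Myocd, so that Tagln and Myh11 were not among them. The median difference was 0.27, with 28 genes above 0 and 5 below it (45.1% and 54.9% of all probe-sets), beside a median of -0.03 over all probe-sets.

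Tagln had the largest increase, with 10.83, 11.46 and 10.02 in the cKO corpus, against 9.94, 10.18 and 9.21 in the control corpus. The groups overlapped, and the difference of 0.99 had a 95% interval of 0.28 to 1.70 and an adjusted p of 0.429. Actg2 had 9.90, 10.94 and 9.74 in the cKO corpus, against 9.07, 9.58 and 9.04 in the control corpus, apart by 0.96 (interval 0.33 to 1.59, adjusted p = 0.383). For Cnn1 the values were 10.63, 11.36 and 10.49 in the cKO corpus, against 10.18, 10.47 and 9.86 in the control corpus, a difference of 0.66 (interval 0.16 to 1.15, adjusted p = 0.452). In each of these genes replicate 2 was the highest and replicate 3 the lowest of the cKO corpus arrays. Without cKO corpus replicate 2 the differences were 0.65 for Tagln, 0.59 for Actg2, 0.39 for Cnn1 and 0.30 for Myh11, with 0 called.

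Csrp1 had 11.21, 11.32 and 10.89 in the cKO corpus, against 10.79, 10.45 and 10.64 in the control corpus, and differed by 0.52 (adjusted p = 0.383). Cald1 differed by 0.60 (adjusted p = 0.540), with 9.09, 9.29 and 8.76 in the cKO corpus, against 8.67, 8.54 and 8.12 in the control corpus. Myh11 had 10.46, 10.91 and 10.22 in the cKO corpus, against 10.20, 10.25 and 9.67 in the control corpus, which overlapped (0.49, adjusted p = 0.529). Acta2 was at 12.58, 12.86 and 12.65 in the cKO corpus, against 12.36 on each control corpus array, 0.34 higher (adjusted p = 0.495). P2rx1 was lower by -0.73 (interval -1.38 to -0.09, adjusted p = 0.517), with 5.58, 5.21 and 5.87 in the cKO corpus, against 5.97, 7.09 and 5.79 in the control corpus. The control value of 7.09 stood apart, and without that array, control corpus replicate 2, the P2rx1 difference was -0.33.

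cKO corpus replicate 3 decided the only call. Without it 1 gene, Tagln, was called higher in the cKO corpus (1.36, adjusted p = 0.0343), where 861 of 41345 probe-sets were called in either direction, and the median of the 33 genes was 0.35. Between the regions of cKO mice 20 genes were called without it (1665 of 41345 probe-sets), with a median of 1.06. Without control corpus replicate 1 there were 0 calls, and Tpm1 differed by 0.68 (adjusted p = 0.467) and Des by 0.93 (adjusted p = 0.500), in place of 0.34 and 0.61. Tpm2 then differed by 0.54 in place of 0.17, and Ldb3 changed sign, to 0.30 from -0.09. Fibroblast markers were also higher in the cKO corpus. All 8 were above 0 between cKO and control corpus (45.1% of all probe-sets), with a median of 0.85. Of them 5 were higher at an unadjusted p under 0.05 in limma (4.26% of all probe-sets) and 0 were called. Their mean level was 10.54, 10.19 and 9.53 in the cKO corpus, against 9.60, 9.30 and 9.19 in the control corpus. The mean of the 33 genes was 8.46, 8.78 and 8.42 in the cKO corpus, in another order of arrays. In the control corpus it was 8.45, 8.29 and 8.10, in the same order as the fibroblast markers. All 9 non-muscle cytoskeleton genes were above 0 as well (45.1% of all probe-sets), with a median of 0.36, whereas pericyte markers had a median of -0.06. Epididymal epithelium markers were lower for 7 of 8 (median -0.33, 3 at an unadjusted p under 0.05 in limma). Leukocyte and endothelial markers had medians of 0.55 and 0.35 but were mixed. Of 6 leukocyte markers 4 were above 0 and 2 below it, with 2 higher and 2 lower at an unadjusted p under 0.05 in limma. Of 8 endothelial markers 6 were above 0 and 2 below it, with 1 higher and 1 lower at that threshold. In each of these lists 0 were called. The part of these marker lists in the muscle genes was not tested.

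**Figure D5:**
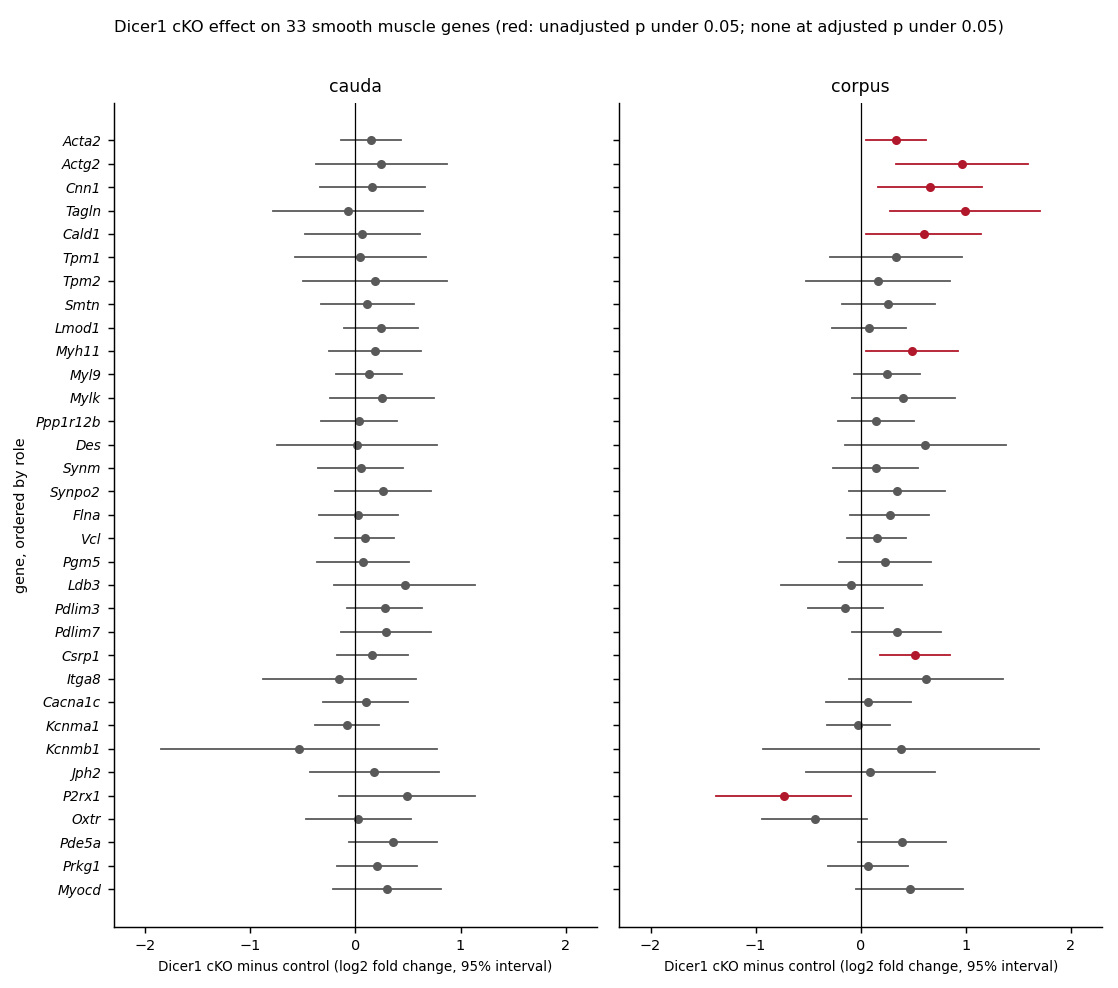
Difference of Dicer1 cKO and control (log2 fold change, points) with its 95% interval (lines) for 33 genes in the cauda (left) and the corpus (right), in red where the unadjusted p was under 0.05. In the cauda 0 intervals leave out 0, and in the corpus 8 do, 7 of them on the higher side and P2rx1 on the lower side.

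The difference between the effects of the 2 regions, the cKO effect in the cauda minus that in the corpus, was called for 0 of 33 genes (0% of all probe-sets). At an unadjusted p under 0.05 in limma P2rx1 was above 0 (3.05% of all probe-sets) and Tagln below 0 (3.44%). P2rx1 had 1.23 (standard error 0.41, adjusted p = 0.720 in limma), from a difference of 0.49 in the cauda and -0.73 in the corpus. Tagln had -1.06 (standard error 0.46, adjusted p = 0.766 in limma), from -0.07 in the cauda and 0.99 in the corpus. The cKO effect was smaller in the cauda than in the corpus for 24 of 33 genes and larger for 9 (46.0% and 54.0% of all probe-sets), with a median of -0.12 beside 0.03 over all probe-sets. Effects in the 2 regions, which share no array, had a Pearson's r of -0.291 and a Spearman's rho of -0.156 across the 33 genes, a description only. The intervals of 11 genes, P2rx1 and Tagln among them, reached past a 2-fold difference between the effects, which was therefore not excluded for these.

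Within groups the genes deviated together from array to array. In the cKO cauda replicate 3 was the highest array for 29 of 33 genes and replicate 1 the lowest for 29. In the control cauda replicate 2 was the highest for 22. In the cKO corpus replicate 2 was the highest for 21 and replicate 3 the lowest for 19, and in the control corpus replicate 1 was the highest for 17 and replicate 3 the lowest for 20. Kcnmb1 was the plainest exception, lowest in the control cauda on replicate 2 (7.86), where Des (11.86), Myocd (9.25) and Synpo2 (9.54) were at their highest. Because the genes share such deviations, their counts are not 33 independent observations.

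Beyond the list, 79 further genes of the same pathway were examined, of which 70 had a probe-set of their own. Between cauda and corpus 21 rose and 1 fell in cKO mice (1.64% and 1.05% of all probe-sets), and 15 rose and 1 fell in control mice (1.77% and 1.75%). Median differences were 0.26 and 0.34. By group, 5 of 17 receptors and G proteins rose in cKO mice and 3 in control mice, 6 and 5 of 15 genes for calcium stores and channels, and 5 and 4 of 16 genes for dense plaques, the dystrophin complex and caveolae. Among the genes of smallest p, Chrm2, a muscarinic acetylcholine receptor, had 8.88, 9.14 and 8.58 in the cKO cauda, against 4.94, 4.65 and 4.55 in the cKO corpus, and 8.90, 8.65 and 8.84 in the control cauda, against 5.20, 5.87 and 4.92 in the control corpus. It differed by 4.15 (adjusted p = 1.6e-05) and 3.47 (adjusted p = 7.36e-05), with corpus values near or below the median of all values, so that here too the size may be understated. Npy1r, a receptor for the sympathetic cotransmitter neuropeptide Y, differed by 3.32 and 2.50.

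Ano1, a calcium-activated chloride channel, differed by 1.52 in cKO mice and 1.76 in control mice, Irag1, a target of the cyclic GMP-dependent kinase at the calcium store, by 1.42 and 1.55, and Kcnq5, a voltage-gated potassium channel, by 1.51 and 0.92. The gene that fell in each was Gna11, a G protein alpha subunit (adjusted p = 0.00174 in cKO mice and 0.00109, with a difference of -1.07, in control mice). Of 6 genes for SRF and its partners, 0 were called in either genotype, unlike Myocd. Between cKO and control mice 0 of the 70 genes were called in either region. The smallest p in the corpus was that of Itga5, an integrin subunit, with 8.19 ± 0.527 in the cKO corpus, against 6.71 ± 0.204 in the control corpus (SD, n = 3 each, difference 1.48 in limma, adjusted p = 0.242), followed by Rgs2 (0.42), Sgcb (0.44) and Foxf1 (0.36). In the cauda it was that of Trpc6, a cation channel, with 6.11, 6.26 and 6.27 in the cKO cauda, against 5.89, 5.65 and 5.45 in the control cauda (0.55, adjusted p = 0.194), followed by Rgs2 (0.31), Kcnq5 (0.37) and Sgca (0.43).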

How the data were processed

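The authors hybridised RNA to Affymetrix Mouse Gene 2.0 ST arrays and deposited log2 intensities per probe-set, after background correction, normalization and summary with RMA (robust multi-array averaging), for which the methods name Partek Genomics Suite. No version of RMA is given in the submitters' processing notes. The sample labels describe a miRNA array, but the probe-set identifiers are those of the gene array that the methods name. Values were used as deposited. The number of arrays limits their precision.

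Of 41345 probe-sets, 23521 carry 1 gene symbol, 1820 several and 16004 none here. The means of the 4 groups were fitted over 12 arrays in limma 3.58.1 (R 4.3.3, lmFit and eBayes), with 8 residual degrees of freedom, 3.18 prior degrees of freedom and a prior variance of 0.0515. Two-sided p-values of each contrast were adjusted over the whole table (Benjamini-Hochberg) with a threshold of 0.05, and the procedure was tested on simulated data. Groups and replicate numbers came from the sample titles. Genes were named by a rule: all members, with values on every array for chosen ones of each role and those at an unadjusted p under 0.05 between cKO and control, and the 4 further pathway genes of smallest p per comparison. The members and lists were chosen with earlier results of these data known. Promoters came from RefSeq (GRCm38.p6).

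Alternatives were each probe-set's own variance, brighter probe-sets, probe-sets with 1 symbol, quantile normalization, centring, the compared arrays alone, the replicate number as a fixed block or as a random one (statmod 1.5.0), means over probe-sets, an unadjusted p under 0.002 with over 2-fold, and leaving out each array.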

Additional observations from a re-analysis of the deposited data

How the results depend on the processing

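The count of genes called between cauda and corpus was 15 in Dicer1 cKO mice when only the arrays compared were fitted, against 23 with all arrays, and 25 in control mice against 26. Over the other alternatives that kept all arrays it lay between 18 and 26 in cKO mice and between 23 and 30 in control mice. Leaving out 1 array gave 16 to 23 in cKO mice and 23 to 30 in control mice. Of 41345 probe-sets, 614 to 1665 were called in cKO mice and 669 to 2028 in control mice. In control mice the 30 genes went with 2028 probe-sets and the 23 with 669, whereas in cKO mice 20 genes went with 1665. Between cKO and control in the corpus leaving out 1 array gave 0 to 1 calls, the 1 being Tagln without cKO corpus replicate 3. In the cauda and for the difference of effects it gave 0 throughout. The median difference between regions in cKO mice was 1.06 to 1.38 when 1 array was left out, the highest without cKO corpus replicate 2. Itga8 turned to -0.12 in cKO mice without cKO corpus replicate 3 (adjusted p = 0.910), was 0.73 without cKO corpus replicate 2, and was not called there in any setting. The cause of these shifts was not tested, except that fewer arrays leave fewer degrees of freedom. With the replicate number as a fixed block, 21 genes were called in cKO mice, 27 in control mice and 0 in the remaining comparisons, and a random block gave 23 and 28. Arrays with the same number deviated together weakly at most (correlations -0.096 to 0.208, most above 0, 3 of 18 pairs over 0.1). Arrays with different numbers had -0.173 to 0.165. Between cauda and corpus the same-number correlations were 0.098, 0.110 and 0.067 in cKO mice and 0.050, 0.082 and -0.039 in control mice. The numbers were not taken to pair samples, but a weak pairing was not excluded. Of the region differences, and the effects of cKO at an unadjusted p under 0.05, recomputed under alternatives, 1495 kept direction and side of the threshold, 40 passed it newly, 58 no longer passed it and 1 changed sign. Over all 33 genes, at least 1 alternative changed the sign of the cKO difference for 11 in the cauda and 7 in the corpus, and of the difference of effects for 14. The difference of effects could not be fitted with only the arrays compared.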
